A study of Rattus norvegicus with 7 samples.

Results

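Arteridin peaks were compared between A10 cells with and without overexpression of the protein, over all 5092 peaks of the 2 Arteridin ChIP-seq lists. The library with overexpression is named ORF and has 3013 peaks, and the library without it is named CTR and has 2079. The other 1031 of the 6123 peaks in the series come from YBX1 libraries and are not treated here. A peak was counted as shared when it overlapped a peak of the other list by at least 1 bp, and otherwise as present in its own list alone. A10 is an established rat vascular smooth muscle line, labelled as derived from the medial layer of the thoracic aorta and used at passages 10 to 15. Plasmids were delivered with a lipid reagent, and the labels do not say whether CTR cells received an empty plasmid, nor how long after transfection the cells were taken. Both libraries were made with a custom rabbit antibody against the full-length protein and sequenced from 1 end over 50 nt. The labels show 1 input library for this antibody. There was 1 library per condition. No difference between ORF and CTR therefore has a replicate check or a p-value, and every interval below is an exact 95% interval that covers counting error only.

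Arteridin is the protein encoded by the gene named Phenotype Switching Regulator, which also yields the non-coding RNA lncPSR. Vascular smooth muscle cells can move between a contractile state, in which they express the proteins of the contractile apparatus, and a synthetic state, in which they divide, migrate and lay down matrix. In ChIP-seq, DNA fragments bound by a protein are pulled down with an antibody and sequenced, and a peak is a stretch where reads pile up above the level expected from the input DNA. The summit is the base of a peak with the most reads. An antibody against the whole protein can recover both the cell's own Arteridin and the protein made from the plasmid. Peak lists hold no expression values, so neither the level of Arteridin nor smooth muscle markers could be read from them.

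The ORF list had 1.45 times as many peaks as the CTR list (interval 1.37 to 1.53), although both libraries were scaled almost alike to the input. The number of reads at each summit and the level expected there were recovered from the deposited fold and p values. A single input read at the summit was worth 0.940 reads in ORF against 0.925 in CTR. Their ratio was 1.0152, which is used below as the ratio of depths. The genome background was 1.0347 times as high in ORF as in CTR. Divided by the ratio of the shortest peak lengths, 53 bp in ORF and 52 bp in CTR, this again gave 1.0152. At the 9 positions where both lists placed a summit on the same base, the ORF over CTR ratio of the expected levels was 1.0347 at 8 and 1.0152 at the remaining 1, within 0.0005. The expected levels of the lists therefore differed at these positions only by constants of the libraries.

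The excess of ORF peaks was seen in all 6 classes of peak height. Peaks with 5 to 6 reads at the summit were 502 in number in ORF against 358 in CTR, a ratio of 1.40 (1.22 to 1.61). Peaks with 8 reads numbered 647 and 485, a ratio of 1.33 (1.18 to 1.50). The ratio was 1.84 (1.51 to 2.24) for 11 to 15 reads, where ORF had 290 peaks and CTR 158, and 1.57 (1.01 to 2.47) for 16 or more reads, with 55 against 35. These counts leave out 117 ORF and 101 CTR peaks whose expected level was at least 3 reads, where many reads are needed to pass the caller. All 27 ORF and 25 CTR mitochondrial peaks are among those left out. The median peak had 8 reads in each list, so most of both lists rests on few reads.

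Most assembled chromosomes held more ORF than CTR peaks, but the interval of the ratio left out 1 on only 6 of the 21 chromosomes with peaks. ORF had more peaks on 19 chromosomes and fewer on chromosomes 13 and 14. Chromosome 6, which holds 86.3% of the ORF and 85.7% of the CTR list, had 2600 and 1781 peaks, a ratio of 1.46 (1.37 to 1.55). Chromosome 4 had 50 and 20, a ratio of 2.50 (1.46 to 4.43), and chromosome 12 had 17 and 3, a ratio of 5.67 (1.64 to 30.2). Chromosome 8 had 36 and 18, chromosome 7 had 9 and 1, and chromosome 16 had 6 ORF peaks and no CTR peak. On chromosome 8, 26 of the ORF and 9 of the CTR peaks lay in 1 clump, from 38745992 to 39044283. Chromosome 1, with 73 and 61 peaks, lay closer to equal numbers, with a ratio of 1.20 (0.840 to 1.71). Peaks of a chromosome often lie in clumps and are not independent, which these intervals do not cover.

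**Figure D1:**
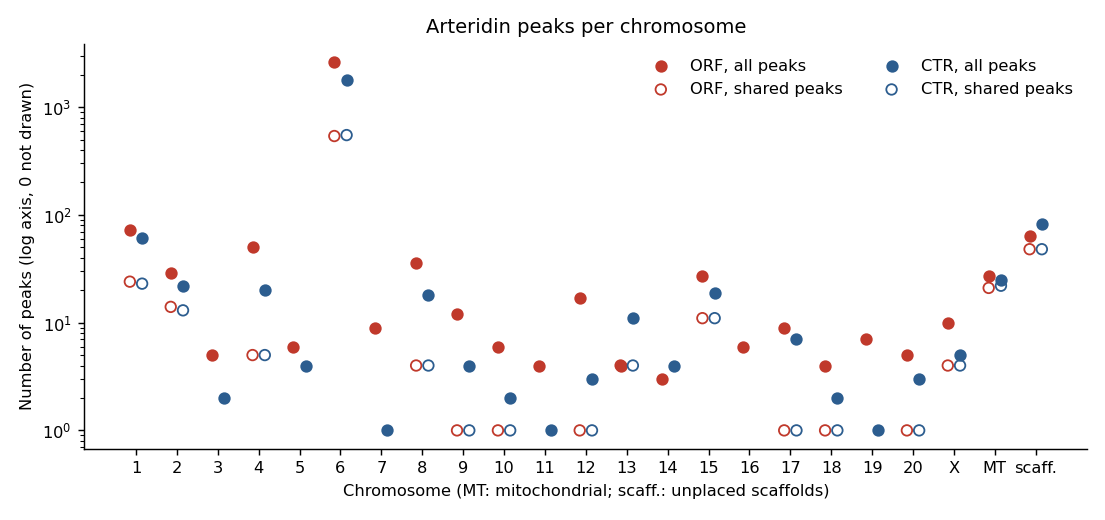
Number of peaks (log axis) on each chromosome with a peak, on the mitochondrial genome (MT) and on unplaced scaffolds. Filled points are all peaks of ORF (red) or CTR (blue) and open points the shared ones; chromosome 6 stands far above all others, and scaffolds had 64 ORF against 83 CTR peaks.

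The unplaced scaffolds did not show the ORF excess, and the mitochondrial genome had too few peaks to tell. The mitochondrial genome had 27 ORF and 25 CTR peaks, a ratio of 1.08 (0.603 to 1.94). The scaffolds had 64 and 83, a ratio of 0.771 (0.548 to 1.08), and on the scaffold with the most peaks there were 55 and 70. On assembled chromosomes outside the first 12 Mb of chromosome 6, ORF had 351 peaks and CTR 216, a ratio of 1.62 (1.37 to 1.93). The start of chromosome 6 alone had 2571 and 1755, a ratio of 1.46 (1.38 to 1.56). The ratios of the 2 assembled classes overlap within their intervals, whereas that of the scaffolds lies below both. Among peaks with −log10 q of 5 or more, a limit set by region after the data were seen, the excess outside the start of chromosome 6 was no longer found. Other assembled sequence then had 57 ORF and 54 CTR peaks, which is 1.06 (0.715 to 1.56), and all sequence outside the start of chromosome 6 had 98 and 110, which is 0.891 (0.672 to 1.18). The start of chromosome 6 had 390 and 206 such peaks, which is 1.89 (1.60 to 2.25).

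On assembled chromosomes outside the start of chromosome 6, the ORF excess lay mainly in peaks that stand alone. Mitochondrial and scaffold peaks were not part of this grouping. When summits of either list were linked over gaps of up to 50 kb, a grouping made after the lists had been seen, 277 groups resulted. A lone ORF peak made up 148 of them and a lone CTR peak 61, a ratio of 2.43 (1.79 to 3.33). The 15 groups of 5 or more peaks held 129 ORF and 105 CTR peaks. Peaks of both lists occurred together in 47 groups. The group on chromosome 2 from 197333140 to 197349226 had 11 of its 12 ORF peaks and 10 of its 11 CTR peaks shared. On chromosome 15 from 22207484 to 22212120, 9 of 11 peaks of each list were shared. The group on chromosome 1 from 228985925 to 229025465 had 32 peaks in each list but only 15 shared ORF and 14 shared CTR peaks, so equal numbers did not mean the same positions. On chromosome 8 from 38745992 to 39044283, 2 of 26 ORF and 2 of 9 CTR peaks were shared.

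Within the start of chromosome 6 the ORF excess was spread over most of the region. Among its 89 windows of 100 kb with a summit, ORF had more summits in 80, fewer in 6 and as many in 3. In the 69 windows with at least 20 summits of the lists together, the median ratio was 1.46, from 0.786 to 3.88, and the interval left out 1 on the high side in 15 and on the low side in none. The largest surplus was in the window from 3600001 to 3700000, with 153 ORF and 107 CTR summits. Next came 800001 to 900000, with 114 and 81, 7100001 to 7200000, with 85 and 52, and 7200001 to 7300000, with 118 and 89. The largest deficit in this region was small, 11 ORF against 14 CTR summits from 8500001 to 8600000. The ORF and CTR counts of the 89 windows had a Spearman correlation of 0.90 and a Pearson correlation of 0.98, which describes windows that share an input and a mappable sequence. In the 288 windows with a summit on other assembled sequence, 167 had no CTR and 70 no ORF summit.

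**Figure D2:**
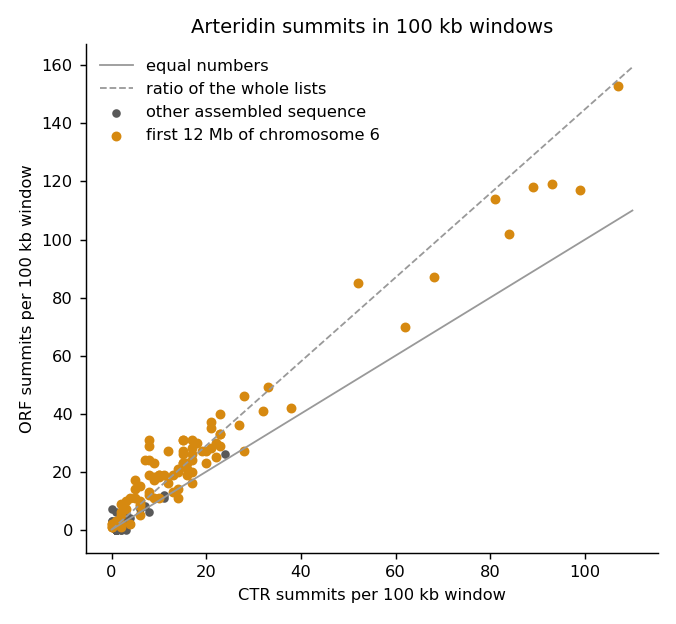
ORF against CTR summits in each 100 kb window of the assembled chromosomes that holds a summit; orange points are the first 12 Mb of chromosome 6, grey points the rest, the solid line marks equal numbers and the dashed line the 1.45 ratio of the whole lists. Most orange points lie above the solid line, and the densest window has 153 ORF and 107 CTR summits.

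Fewer than 1 ORF peak in 4 had a counterpart in CTR at the same place. Of the 3013 ORF peaks 680 were shared, which is 22.6% (21.1 to 24.1), and of the 2079 CTR peaks 690 were shared, which is 33.2% (31.2 to 35.3). Merged over both lists, the peaks gave 4373 regions, of which 651 held both lists, 2333 ORF alone and 1389 CTR alone. In bases, 53.8 kb were covered by both lists, 18.0% of the ORF and 27.6% of the CTR length. A CTR peak had more ORF peaks to meet than the reverse, so the CTR share is the higher one by construction. Overlap was mostly simple, since 642 ORF peaks met 1 CTR peak and 38 met 2 or more, while 29 CTR peaks met 2 or more ORF peaks.

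The shared share differed between parts of the genome. It was 20.7% of ORF and 30.9% of CTR peaks at the start of chromosome 6, close to the shares over all peaks. On other assembled sequence it was 22.5% (18.2 to 27.2) and 35.6% (29.3 to 42.4). On the scaffolds it was 75.0% (62.6 to 85.0) of ORF and 57.8% (46.5 to 68.6) of CTR peaks, and on the mitochondrial genome 77.8% (57.7 to 91.4) and 88.0% (68.8 to 97.5). In both of the latter the intervals lie above the 22.6% and 33.2% of the whole lists. The high scaffold share came from the scaffold with the most peaks, which held 46 of the 48 shared peaks of each list. There 83.6% of 55 ORF and 65.7% of 70 CTR peaks were shared. On the other scaffolds 2 of 9 ORF and 2 of 13 CTR peaks were shared, too few to show a higher share. The mitochondrial summits had a median of 69 reads in each list over expected levels of 31.4 in ORF and 30.5 in CTR, against 8 reads over 0.478 and 0.443 at the start of chromosome 6. The part of this difference in depth in the higher overlap was not tested. On 7 of the 21 chromosomes with peaks no peak was shared, namely 3, 5, 7, 11, 14, 16 and 19, which had at most 9 ORF peaks each. All 4 ORF peaks of chromosome 13 were shared, as were 4 of the 5 CTR peaks of chromosome X.

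Along the start of chromosome 6 the shared share varied from Mb to Mb and did not follow the number of peaks alone. Between 3 and 4 Mb, where ORF had 518 and CTR 384 peaks, 32.0% (28.0 to 36.3) of ORF and 44.5% (39.5 to 49.7) of CTR peaks were shared. Between 7 and 8 Mb, with 616 and 452 peaks, the shares were 25.0% and 34.7%. Between 9 and 10 Mb, with 220 and 130 peaks, they were 8.64% (5.28 to 13.2) and 15.4% (9.66 to 22.8). Between 2 and 3 Mb, 14 of only 42 ORF peaks, 33.3% (19.6 to 49.5), and 17 of 37 CTR peaks were shared. Most of these shared peaks, 12 of ORF and 15 of CTR, lay from 2600001 to 2700000, among 16 ORF and 17 CTR summits. Between 4 and 5 Mb, with 32 and 30 peaks, the shares were 21.9% and 23.3%. Between 5 and 6 Mb, 3 of 55 ORF and 3 of 32 CTR peaks were shared. The interval from 6 to 7 Mb had the highest ratio of peak numbers, 93 to 40, which is 2.33 (1.59 to 3.46), with 8 peaks of each list shared. More peaks per Mb leave less room for a peak to miss the other list, so these shares do not compare like with like.

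Shared peaks were longer than peaks of 1 list alone. The median length was 109 bp for shared and 75 bp for unshared ORF peaks, with middle ranges of 74 to 175 and 55 to 104 bp. For CTR the medians were 95 and 72 bp. The shortest length the caller reported made up 8.24% of shared and 22.6% of unshared ORF peaks, and 9.71% and 22.9% of those of CTR. The share that overlapped went from 11.7% (9.55 to 14.1) of ORF peaks under 60 bp to 64.2% (56.8 to 71.3) of those of 200 bp or more. In CTR it went from 18.9% (15.7 to 22.3) to 79.6% (70.5 to 86.9). These shares are over all sequences, mitochondrial and scaffold peaks included. A longer peak meets another more easily, so length and overlap are tied by the definition of a shared peak. The longest ORF peak, on chromosome 6 from 10805933 to 10806847, was 915 bp long with 25 reads at its summit, and was shared although the nearest CTR summit lay 426 bp away. The longest ORF peak without a CTR peak, from 3445003 to 3445389, was 387 bp long, and the longest such CTR peak on an assembled chromosome, from 7512351 to 7512635, was 285 bp long.

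Higher peaks were found in both lists more often than low ones. Among peaks with an expected level under 3 reads, 15.1% (12.1 to 18.6) of ORF peaks with 5 to 6 summit reads were shared, 22.2% (19.1 to 25.5) with 9 to 10 reads, and 56.4% (42.3 to 69.7) with 16 or more. The corresponding CTR shares were 20.4% (16.3 to 24.9), 37.8% (33.2 to 42.5) and 88.6% (73.3 to 96.8). At the start of chromosome 6 all 12 CTR peaks with 16 or more reads were shared, and so were 12 of 25 ORF peaks of that height. On other assembled sequence 9 of 12 CTR and 10 of 21 ORF peaks of that height were shared. Over all sequences, 24 of 55 ORF peaks with 16 or more reads were in ORF alone, which is 43.6% (30.3 to 57.7), and 4 of 35 such CTR peaks were in CTR alone, 11.4% (3.20 to 26.7).

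Peaks in dense surroundings were also shared more often. At the start of chromosome 6, windows dense in 1 list were also dense in the other, which leaves less room for a peak to miss it. Shares at different densities therefore do not compare like with like. Local density was taken as the number of other summits of the same list within 50 kb on either side. Its median was 64.5 at shared and 30 at unshared ORF peaks, and 64 and 20 at those of CTR. These medians and the shares by density alone are over all sequences, mitochondrial and scaffold peaks included. With no other ORF summit within 50 kb, 15 of 183 ORF peaks were shared, which is 8.20% (4.66 to 13.2), and with 40 or more it was 33.4% (30.8 to 36.1) of 1290. In between the ORF share did not climb steadily, with 22.3% (15.0 to 31.2) at 1 to 4 and 13.9% (11.7 to 16.2) at 20 to 39 neighbours. For CTR the share was 19.4% (12.3 to 28.4) of 103 lone peaks and 47.9% (44.5 to 51.3) of the 844 peaks with 40 or more neighbours. Height and density were also looked at together at the start of chromosome 6. There, 9.53% (7.81 to 11.5) of ORF peaks with 5 to 8 reads and under 40 neighbours were shared, and 27.8% (24.4 to 31.5) with the same height and 40 or more. With 9 to 10 reads these shares were 6.88% (3.90 to 11.1) and 28.8% (24.4 to 33.5), no higher than with 5 to 8, and with 11 or more they were 23.5% (14.1 to 35.4) and 44.7% (37.5 to 52.1). In CTR, peaks of 11 or more reads were shared alike in both settings, 53.2% (38.1 to 67.9) and 53.6% (41.2 to 65.7), whereas those of 5 to 8 reads differed, 15.4% against 43.1%.

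**Figure D3:**
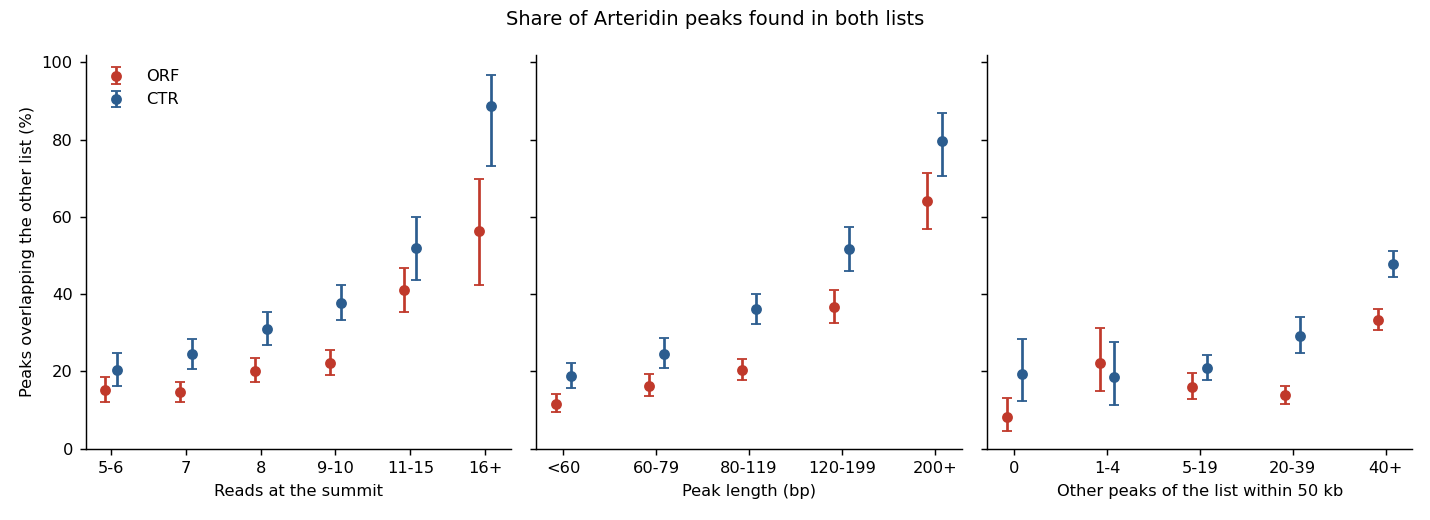
Percentage of ORF (red) and CTR (blue) peaks that overlap the other list, by reads at the summit (left, expected level under 3 reads), peak length (middle) and number of other summits of the same list within 50 kb (right); bars are exact 95% intervals. Shares are highest for the tallest and the longest peaks, with 88.6% of CTR peaks with 16 or more reads, and at 40 or more neighbours.

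Summits of the lists often lay within 100 bp of each other. Such a neighbour was found for 641 ORF summits, which is 21.3% (19.8 to 22.8), and for 631 CTR summits, which is 30.4% (28.4 to 32.4). Within 20 bp it was 214 summits of each list, 7.10% of ORF and 10.3% of CTR, and 9 summits coincided. The median distance from a CTR summit to the nearest ORF summit was 274 bp (247 to 312), and that from an ORF summit to the nearest CTR summit 715 bp (647 to 778). Distances left out 9 ORF and 6 CTR peaks on sequences where the other list has none.

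The spacing within each list was measured for comparison. The median distance to the next summit of the same list was 690 bp in ORF and 734 bp in CTR. Of ORF summits, 12.9% had another ORF summit within 200 bp and 30.3% a CTR summit, whereas within 1000 bp it was 60.2% and 56.2%. Of CTR summits, 1185 had another CTR summit within 1000 bp and 1489 an ORF summit, and within 5000 bp it was 83.8% and 91.7%. A CTR summit was nearer to an ORF summit than to another CTR summit in 1545 of 2068 cases, 74.7% (72.8 to 76.6). An ORF summit was nearer to a CTR summit than to another ORF summit in 1595 of 3003 cases, 53.1% (51.3 to 54.9). ORF offers more summits than CTR, which by itself makes the CTR share the higher one. Summits of 1 list never lay closer than 75 bp in ORF and 81 bp in CTR, since nearby pile-ups join into 1 peak, so distances below that cannot be compared within a list. Summits of the other list can lie closer than this. The limit therefore raises the shares within 200 bp of the other list, and those nearer to it, relative to the same list. On other assembled sequence the distances spread widely, with a median of 1025 bp from CTR to ORF and 55752 bp from ORF to CTR.

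**Figure D4:**
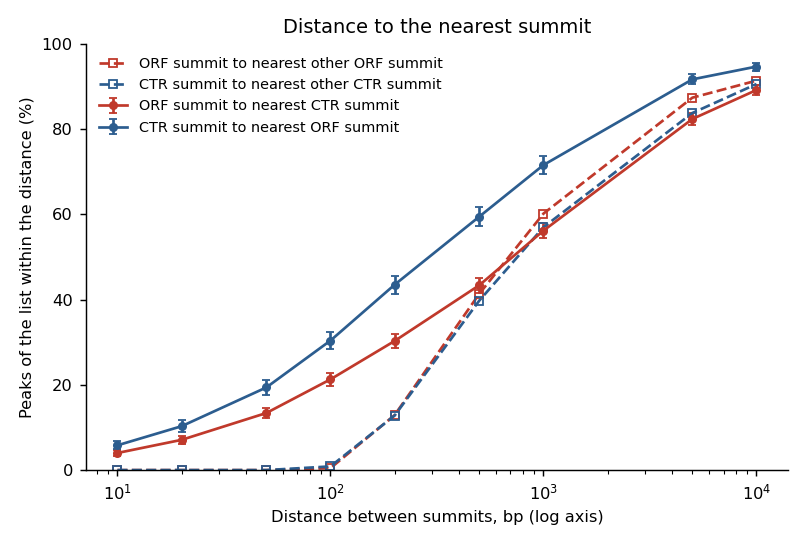
Percentage of each list's summits with another summit within a given distance (log axis, bp); solid lines run to the other list, with exact 95% intervals, and dashed lines to the same list. For CTR the line to the other list is the higher one at every distance drawn. For ORF it is the higher one up to 500 bp, with 43.4% to CTR and 41.4% to ORF. At 1000 bp the ORF lines have crossed, with 56.2% to CTR and 60.2% to ORF.

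From ORF to CTR, the distance was shorter where the CTR list was denser, whereas from CTR to ORF it did not follow the density steadily. Summits of all sequences, mitochondrial and scaffold ones included, were grouped by the number of summits of the other list around them. More such summits bring the nearest one closer, so a decline follows partly from the grouping. Where 40 or more CTR summits lay within 50 kb, the median distance of an ORF summit to CTR was 220 bp, with 20 to 39 it was 786 bp, with 5 to 19 it was 1681 bp, and with 1 to 4 it was 4462 bp. CTR summits with 40 or more ORF summits around them had a median of 151 bp, those with 20 to 39 had 686 bp, those with 5 to 19 had 715 bp and those with 1 to 4 had 228 bp. In the sparsest of these places the CTR distances fell into near and far values, with a lower quartile of 18 bp and an upper quartile of 8341 bp. Of the 77 CTR summits with only 1 to 4 ORF summits within 50 kb, 32 had one within 100 bp, which is 41.6%. This share was 25.7% with 5 to 19 ORF summits around, 20.5% with 20 to 39 and 39.5% with 40 or more.

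Peaks on either side of the 1 bp threshold had the same median of 8 summit reads. Their median lengths differed in opposite directions in the lists, in groups of only 32 to 35 peaks. The 34 ORF peaks that overlapped a CTR peak by up to 10 bp had a median length of 78 bp and a median summit distance of 74.5 bp, and the 35 that missed one by less than 10 bp had 92 and 76 bp. For CTR, the medians were 73.5 and 68.5 bp in the 32 peaks just inside and 63 and 76 bp in the 33 just outside. The smallest overlap was 2 bp, as between 3479859 to 3479930 in ORF and 3479778 to 3479860 in CTR on chromosome 6, with summits 77 bp apart. Adjoining peaks with no base in common were counted as unshared, as from 3437315 to 3437414 in ORF and from 3437263 to 3437314 in CTR, with summits 38 bp apart and 9 reads each. In all, 236 unshared ORF peaks, 7.83% of the list, lay next to a CTR peak with a gap of under 100 bp, and so did 221 CTR peaks, 10.6%.

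Where a peak of 1 list met exactly 1 peak of the other, the peaks were taken as a pair. Overlap is the condition for a pair, so short distances between its summits follow partly from the rule. There were 589 such pairs, with a median overlap of 63 bp, or 92.9% of the shorter peak. Summits lay a median of 40 bp apart, with a middle range of 14 to 72 bp, and in 297 pairs both summits were inside both peaks. The ORF summit was at the higher coordinate in 316 pairs and at the lower in 264. The ORF peak was the longer one in 324 pairs and the CTR peak in 257, with median lengths of 105 and 93 bp. The CTR peak was contained in the ORF peak in 139 pairs, the ORF peak in the CTR peak in 103, and no pair had the same start and end.

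Reads at paired summits were nearly the same with and without overexpression. The median was 9 reads in ORF and 8 in CTR, and the median of the ORF over CTR ratios, corrected for depth, was 0.985 (0.985 to 1.03). The middle 95% of the pairs ran from 0.623 to 1.81. Summed over the 589 pairs, ORF had 7471 reads and CTR 7066, a ratio of 1.04 (1.01 to 1.08), against 1.45 for the number of peaks. Pairs had to pass the caller in both lists, which keeps strongly unequal sites out. The ratio of sums was 1.06 (1.02 to 1.11) at the start of chromosome 6, 1.07 (0.996 to 1.15) on other assembled sequence, 0.992 (0.907 to 1.09) on the mitochondrial genome and 0.901 (0.794 to 1.02) on the scaffolds. Over the pairs the Spearman correlation of reads was 0.58 (n = 589), and 0.54 without the 14 mitochondrial pairs. Most pairs had under 20 reads in all, where counting error is large.

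**Figure D5:**
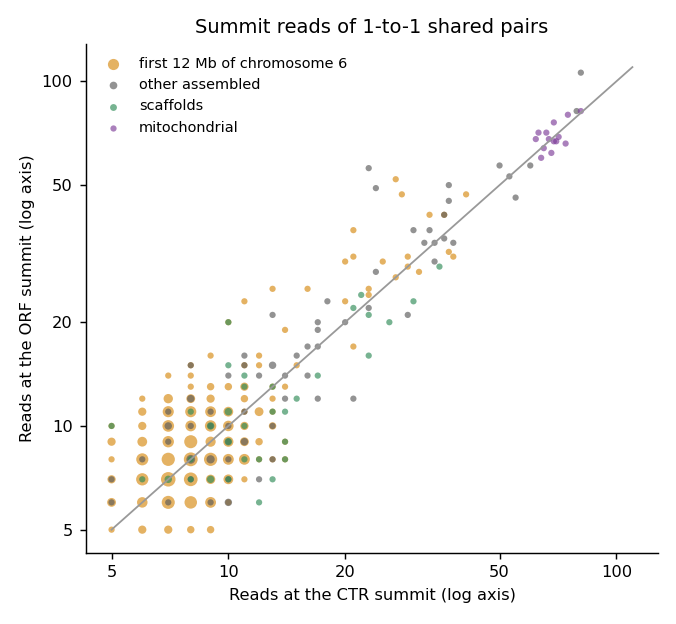
Reads at the ORF summit against reads at the CTR summit for the 589 pairs (log axes), coloured by where the pair lies; larger points hold more pairs and the line marks equal reads. Points scatter about the line, with 4 pairs whose interval lies above 1 after correction for depth.

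Of the 589 pairs, 4 had a ratio whose interval lay above 1, which is 0.679%, and none (0%) had one below 1, which allows a share of up to 0.509% when 3 pairs are taken as the limit for a count of 0. The highest ratio, 2.40 (1.45 to 4.08), was at chromosome 1 from 265469348 to 265469424, with 56 ORF reads over an expected 0.548 and 23 CTR reads over 0.529. This summit was 10 bp from the CTR summit, and no other ORF peak lay within 50 kb. The ratio was 2.01 (1.21 to 3.43) at chromosome 13 from 75060968 to 75061039, where 49 ORF and 24 CTR reads were found at summits 2 bp apart. At the start of chromosome 6, the peak from 1107685 to 1108382 held 52 ORF against 27 CTR reads. Its ratio was 1.90 (1.17 to 3.14), with summits 1 bp apart and expected levels of 6.58 and 6.48. The remaining pair, from 11029020 to 11029215, was named after its values were seen and had 47 ORF against 28 CTR reads, which is 1.65 (1.01 to 2.74). Among the 146 pairs on assembled chromosomes with at least 20 reads together, the ratio was above 1 in 85 and below 1 in 61, with a median of 1.08.

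The intervals of the 6 lowest ratios all held 1. On chromosome 2, the peaks at 197334566 to 197334679 had both summits on the same base, with 12 ORF and 21 CTR reads and a ratio of 0.563 (0.252 to 1.20). On chromosome 6, the peaks at 9802145 to 9802229 had summits 1 bp apart with 8 ORF and 14 CTR reads, and the ratio was again 0.563 (0.205 to 1.44). On chromosome 4, 8 ORF and 13 CTR reads at 176613027 to 176613126 gave 0.606 (0.218 to 1.58), over expected levels of 0.747 and 1.85. The other 3 of the 6 lowest ratios lay between 0.606 and 0.657, with intervals that also held 1. Pairs with large ratios whose intervals also held 1 included 7698989 to 7699281 on chromosome 6, with 23 and 11 reads (2.06, 0.965 to 4.68). The expected level there was 5.64 in ORF and 1.06 in CTR at summits 89 bp apart.

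On 11 of the 13 assembled chromosomes other than 6 with a shared peak, the shared ORF peak with the highest fold had its summit within 20 bp of the CTR summit. Chromosome 13 from 75060105 to 75060408 had the most reads, 106 in ORF and 81 in CTR, but its summits lay 71 bp apart. Chromosome 2 from 261363980 to 261364061 had 17 and 16 reads with summits 3 bp apart, and chromosome 15 from 22211684 to 22211862 had 19 and 17 with summits 14 bp apart. Chromosome X from 369208 to 369282 had 37 and 30 reads with summits 5 bp apart. On chromosome 17 a peak from 14208 to 14395 had 14 and 10 reads with summits 15 bp apart.

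On assembled chromosomes outside the start of chromosome 6, the peaks of 1 list alone with the highest folds lay at widely varied distances from the other list. Chromosome 1 from 148719147 to 148719207 had the most reads among the 6 highest folds of ORF, 26 over an expected 1.88, and the nearest CTR summit was 72927 bp away. On chromosome 3, 21517792 to 21517844 had 19 reads over 1.43, and on chromosome 9, 66867510 to 66867573 had 12 over 0.588, with no CTR summit within 50 kb of either. A pair of neighbouring ORF peaks on chromosome 5, 142610452 to 142610507 and 142610640 to 142610692, had 13 and 11 reads and lay 13570151 and 13570359 bp from the nearest CTR summit. Among CTR peaks without an ORF peak, the highest fold was on chromosome 19 from 28372727 to 28372793, with 14 reads over 0.679, and the nearest ORF summit was 287193 bp away. Next in fold were chromosome 6 from 12528525 to 12528579 and from 139442944 to 139442999, with 10 reads each over 0.349. The former adjoined an ORF peak of 5 reads, its summit 61 bp away. A peak absent from a list has no value there, so these sites show no measured loss or gain of Arteridin.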

How the data were processed

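Peak lists of the ORF and CTR libraries were used as deposited, 1 list per library, with no pooling. The submitters' processing notes name Bowtie2, MACS2, SAMtools, HOMER and FastQC; their versions and cutoffs, the treatment of duplicates and the build were not given in the sources used here. Sequence names are those of Rnor_6.0, and chromosome numbers were assigned from them. Coordinates are counted from 1. For each peak the authors deposited a score, a ratio (fold) of observed to expected reads, −log10 p and −log10 q values, and 1 other value, the offset of its summit. The fold was read as having 1 added to both the observed and the expected number. The submitters' notes and the files give no read depth. Both lists ended at nearly the same −log10 q, at the lowest 1.31 in ORF and 1.30 in CTR. Deposited fold and −log10 q values described peaks within a list only.

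The whole number of reads and the expected level that meet both the deposited fold and −log10 p within 0.0001 were solved for all 3013 ORF and 2079 CTR peaks; 1 CTR peak had 2 solutions and the closer was taken. The most common level above the background was read as 1 input read. Overlaps were counted in Python 3.11.15 (pandas 2.3.3, scipy 1.17.1) and recounted with bedtools 2.31.1 and gave equal counts. Scripts were tested on simulated data. Shares and ratios carry exact 95% binomial intervals, numbers of peaks were compared with the same intervals, and intervals of medians come from binomial ranks. No test between conditions was possible with 1 library each. Named peaks followed rules on ratio, fold, length, window counts and the edge of the overlap rule. The classes, rules and regions were chosen with earlier results of these data known. Sequence, gene and repeat annotation were not used here, since the tables at hand belong to another build.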

Additional observations from a re-analysis of the deposited data

How the results depend on the processing

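A stricter list (−log10 q of 5 or more) had 488 ORF and 316 CTR peaks, without the first 12 Mb of chromosome 6 442 and 324, and merged within 1000 bp 1648 and 1203. The ORF over CTR ratio of numbers stayed between 1.36 and 1.54 under these, on assembled chromosomes alone, and, as chosen after seeing the data, with a common lowest −log10 p in both lists. By region it did not hold: in the stricter lists, split by region after seeing the data, the ratio was 1.89 in the first 12 Mb of chromosome 6, 1.06 on other assembled sequence and 0.891 on all sequence outside the first 12 Mb. The share of ORF and CTR peaks that were shared was 18.6% and 27.8% in the stricter lists, 9.99% and 14.5% with reciprocal overlap of 50%, 56.2% and 71.6% with summits within 1000 bp, and 33.5% and 45.4% without the first 12 Mb of chromosome 6, which leaves scaffold and mitochondrial peaks in. It was 20.9% of ORF on assembled chromosomes and 30.4% of CTR with summits within 100 bp. The share in the first 12 Mb of chromosome 6 was 79.9% of ORF and 65.2% of CTR in the stricter lists, and 82.2% of ORF after merging.

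In the stricter lists, the median summit distance was 780 bp from CTR to ORF and 3735 bp from ORF to CTR, and median lengths were 159 (shared ORF), 100 (ORF alone), 140 (shared CTR) and 89 bp (CTR alone). Without the first 12 Mb of chromosome 6 the distances were 158 and 3800 bp, lengths were 63.5 (ORF alone), 112 (shared CTR) and 64 bp (CTR alone), and the local densities were 26 (shared ORF), 0 (ORF alone), 24 (shared CTR) and 1 (CTR alone). Counted within 5 kb the densities were 10, 3, 8 and 3. The median read ratio of pairs was 0.966 with the ratio of backgrounds as depth and 1.05 in the stricter lists. Stricter limits keep fewer peaks and looser ones more. Apart from that, the cause was not tested. Of 65 alternatives, 22 left the value within its range and 43 did not. No paired analysis was possible because ORF and CTR were sequenced in 1 library each. With a median of 8 reads at the summit, single peaks carry wide counting error.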
